A study of Mus musculus with 9 samples.

Results

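The numbered zinc finger protein genes of the mouse were taken as all genes on the array whose single platform symbol is Zfp followed by a number, with or without 1 closing letter. This gave 98 of the 7117 genes that the platform annotation names, on 120 probes, and all 98 keep the same symbol in a current RefSeq gene table. Membership rests on names alone and used no measured value, but the group itself was chosen with earlier results of these data known. The testes came from Spo11-/- mice and their wild-type controls, and whole-testis total RNA of 1 knockout and 1 wild-type sample competed for the spots of each 2-colour cDNA array. Spo11 encodes the enzyme that cuts DNA to start meiotic recombination. Mice were 15 days old on 4 arrays, all with knockout RNA in Cy3 and wild-type RNA in Cy5. Mice were 12 days old on 5 arrays, with knockout RNA in Cy5 on replicates 1, 4 and 5 and in Cy3 on replicates 2 and 3. By the series' design text the arrays compare different pairs of mice from a shared litter, in quadruplicate, while 12 days has 5 arrays. The strain was not given in the sources used here, nor was it given which arrays share a litter.

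Most numbered zinc finger proteins carry tandem classical fingers, short loops in which paired cysteines and histidines hold a zinc ion and which read DNA. Many of them begin with a KRAB box, which recruits the corepressor Trim28 and through it histone methylation and silencing. Such proteins arise in clusters of duplicated genes, and several of them silence retrotransposons or guard imprints. The symbol is a numbering and no family, however: Zfp185 encodes a LIM-domain protein of the actin cytoskeleton, and Zfp598 and Zfp91 encode ubiquitin ligases. In the young testis the first wave of germ cells moves from spermatogonia into meiotic prophase, so RNA of a whole testis mixes germ cells of several stages with somatic cells. Fewer cells of a type and less RNA per cell cannot be told apart in such samples, and ratios hold no level against which the labelled tissue could be checked.

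Values below are log2 ratios of the 2 dyes of an array, each array centred on its median by the authors. No source used here states which dye stands on top of the ratio. Over all probes, the arrays of 15 days correlated at r = -0.38 to -0.11 with the 12-day arrays of the same dye orientation (8 pairs), and over the zinc finger genes at r = -0.51 to -0.28. With the 12-day arrays of the opposite orientation the range was r = -0.23 to 0.03 over all probes and r = -0.46 to -0.13 over the zinc finger genes (12 pairs), so these genes ran against the 15-day arrays in both orientations. Among themselves the 15-day arrays correlated at r = 0.25 to 0.63 over these genes. The direction is unsettled. Values at 15 days keep the deposited sign. Read as Cy5 over Cy3, a negative one would mark more RNA in the knockout, and read as knockout over wild type, less. Turning the sign turns every 15-day value and swaps the counts above and below 0. Values at 12 days are called knockout over wild type only under the reading Cy5 over Cy3, and otherwise stand as deposited. Between 72.1% and 91.3% of the probes had a value on an array, and 79 zinc finger genes had one on all 9 arrays.

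At 15 days few numbered zinc finger genes passed the threshold, a share no higher than that of all genes. On the deposited sign more passed above 0 than below, which did not hold in every fit. Of 97 tested, 6 passed above 0 and 2 below it (limma, Benjamini-Hochberg adjusted p under 0.05 over all features). For 18 of 95 genes with all 4 values the sign was positive throughout (18.9%, against 14.4% of genes), and for 19 it was negative throughout (20%, against 23.1%). Of all genes tested, 4.04% passed above 0 and 7.2% below it, and 11.2% in either direction against 8.25% of the zinc finger genes. The group as a whole lay at the middle of the array: its median was -0.02, as was that of all genes, with 45 members above 0 and 50 below. The means ran from -0.83 to 1.03, with quartiles at -0.18 and 0.16. At an unadjusted p under 0.05, 26 members (26.8%) stood out, against 28.7% of genes. The count above 0 was 1 without replicate 1, 1 without replicate 2, 2 without replicate 3 and 4 without replicate 4, and that below 0 was 1 without any of the 4. Zfp708 and Zfp820 passed in each of these 4 fits, the other 6 genes did not. After a correction for spot position, with probe number standing in for position, 6 genes passed above 0 and 8 below it. Of all genes 4.66% and 10.6% did (15.2% in either direction). Above 0, Zfp809 gained a call (adjusted p = 0.031) and Zfp334 lost its own (0.065), and the gain below 0 was Zfp35, Zfp369, Zfp42, Zfp54, Zfp955a and Zfp957.

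**Figure D1:**
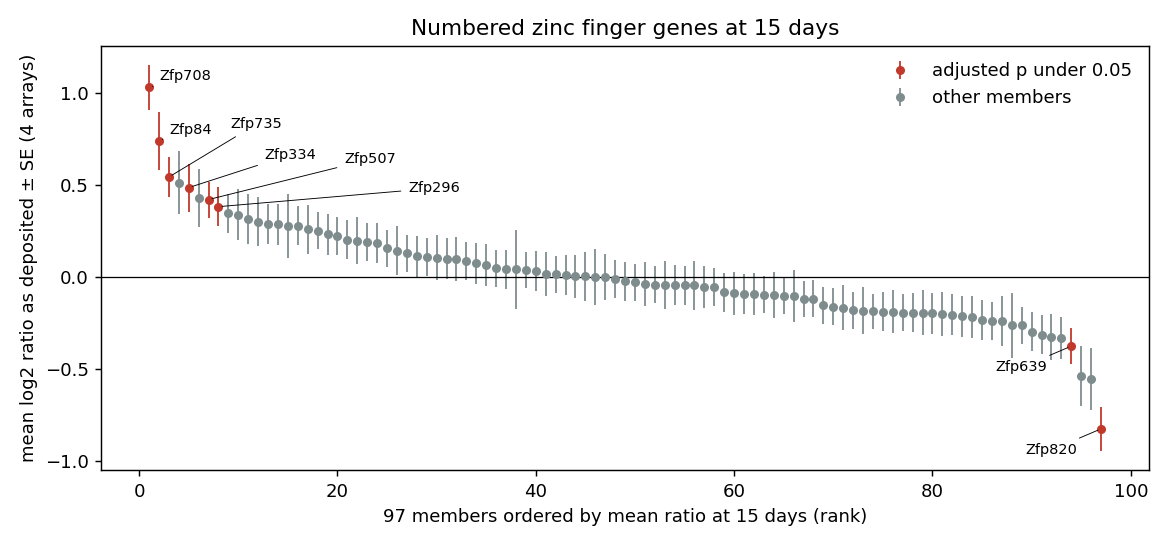
Mean log2 ratio at 15 days (vertical axis, deposited sign, bars are the limma SE over 4 arrays) of the 97 tested genes, ordered from highest to lowest. The 8 genes with an adjusted p under 0.05 are in red; Zfp708 at 1.03 and Zfp820 at -0.83 are the ends of the distribution.

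Zfp708, a KRAB zinc finger protein gene whose product binds a class of retrotransposons, had the highest ratio of the group. Its values were 1.30, 1.08, 1.08 and 0.67 on replicates 1 to 4, a mean of 1.03 (SE 0.12, n = 4, 2.05-fold, limma adjusted p = 0.0024). All 4 arrays lay well above 0, and the gene ranked 11 from the top of 6958 genes. Leaving out single arrays gave 0.94 to 1.15. Zfp84 followed, with 1.18, 1.00, 0.62 and 0.17 and a mean of 0.74 (SE 0.16, adjusted p = 0.021). Its replicate 4 was much lower than the rest, and the call was lost without replicate 1, 2 or 3 (adjusted p = 0.060, 0.066 and 0.068). Zfp735 lay at 0.66, 0.74, 0.38 and 0.40, a mean of 0.55 (SE 0.11, adjusted p = 0.017), and lost its call without replicate 1 (0.056) or 2 (0.065).

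The other 3 genes above 0 had smaller ratios. Zfp334 had 0.78, 0.31, 0.73 and 0.13, a mean of 0.49 (SE 0.13, adjusted p = 0.041), with replicates 1 and 3 high and 2 and 4 low. Zfp507 was the most even of the 8, with 0.48, 0.48, 0.34 and 0.39 and a mean of 0.42 (SE 0.10, adjusted p = 0.027). Zfp296, whose product works with pluripotency factors in stem cells, averaged 0.38 (SE 0.11, adjusted p = 0.045) over a pair of probes that disagreed. One of them read 1.02, 0.83, 1.09 and 0.42, and the other -0.20, 0.23, -0.20 and -0.12. Zfp507 and Zfp296 fell short of the threshold without any 1 of the 4 arrays, with adjusted p from 0.062 to 0.091 and from 0.052 to 0.15. Zfp334 did so without replicates 1, 2 or 3, with adjusted p from 0.073 to 0.15.

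Zfp820 had the lowest ratio. It lay at -0.44, -0.90, -0.98 and -0.98, a mean of -0.83 (SE 0.12, 1.77-fold, adjusted p = 0.0050), and from -0.95 to -0.77 with single arrays left out. Replicate 1 was closest to 0, and all 4 arrays lay below 0. Zfp639 was the other gene past the threshold, with -0.455, -0.36, -0.44 and -0.245 and a mean of -0.38 (SE 0.10, adjusted p = 0.040). Both of its probes had negative means, -0.39 and -0.36. It missed the threshold without any 1 array, with adjusted p from 0.065 to 0.12.

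A pair of genes fell just short. Zfp35, known for its expression in meiotic male germ cells, had -0.27, -1.19, -0.54 and -0.15, a mean of -0.54 (SE 0.16, adjusted p = 0.057), with replicate 2 far below the others. Without replicate 2 it lay at -0.32, and it passed after the correction for spot position (adjusted p = 0.017). Zfp957 averaged -0.56 (SE 0.17, adjusted p = 0.059), but its probes did not match. Without replicate 2, where only the low probe had a value, it lay at -0.31 (adjusted p = 0.17), and with quantile normalization it passed (adjusted p = 0.020). The first read -0.78, -1.29, -1.51 and -0.69, and the second -0.10, 1.04 and 0.17 with no value on replicate 2. Tested as single probes, the first had an adjusted p = 0.0024 and the second 0.24.

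**Figure D2:**
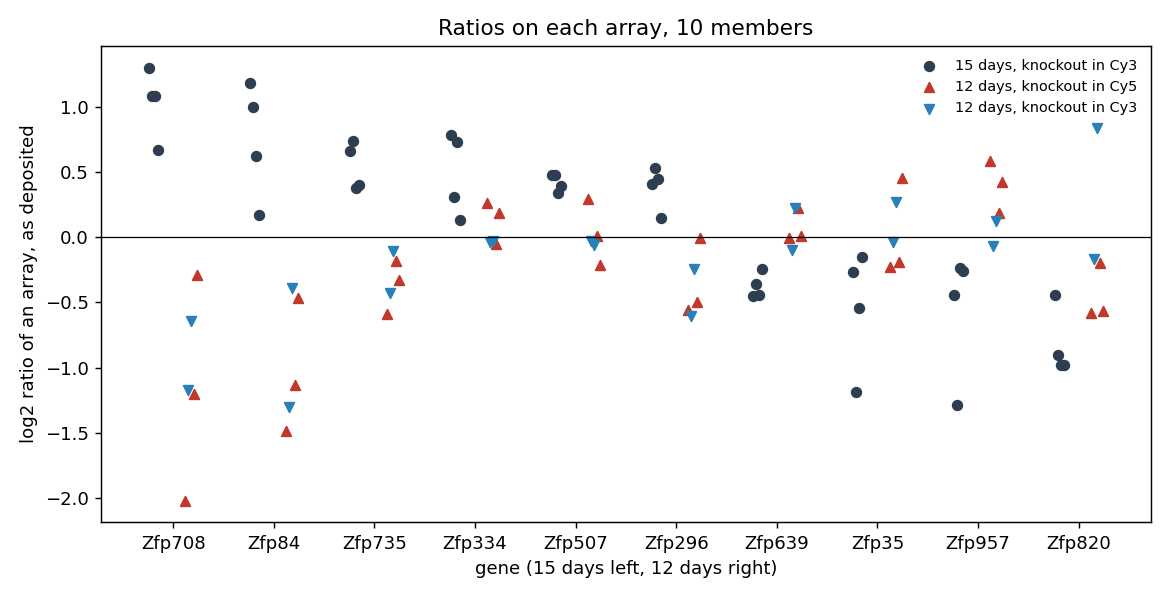
Log2 ratio on each array (vertical axis, deposited sign) of the 8 genes past the threshold at 15 days and of Zfp35 and Zfp957. Circles are 15 days, triangles 12 days with knockout RNA in Cy5 (up) or Cy3 (down). Zfp708, Zfp84, Zfp735 and Zfp296 lie above 0 on all 4 arrays of 15 days and below 0 on all 5 of 12 days.

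The promoters of Zfp84 and Zfp735, with deposited ratios above 0 at 15 days, and of Zfp820, with ratios below 0, are shown as examples. They run from 250 bases before to 50 after the RefSeq start. A link of these sequences to the ratios was not tested. Each of these genes has 1 listed start. Sequences are from RefSeq, build GRCm38.p6, 5′ to 3′ on the gene's strand, with each CG dinucleotide in capitals. Zfp84 is read from chr7:29768302-29768601 (plus strand), Zfp735 from chr11:73688528-73688827 (plus strand) and Zfp820 from chr17:21845710-21846009 (minus strand).
Zfp84: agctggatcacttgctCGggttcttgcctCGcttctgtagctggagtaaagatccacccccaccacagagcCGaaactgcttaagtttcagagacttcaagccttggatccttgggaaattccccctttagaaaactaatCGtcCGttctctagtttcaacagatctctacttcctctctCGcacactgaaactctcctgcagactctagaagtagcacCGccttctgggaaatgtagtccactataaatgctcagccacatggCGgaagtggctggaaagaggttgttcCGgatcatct
Zfp735: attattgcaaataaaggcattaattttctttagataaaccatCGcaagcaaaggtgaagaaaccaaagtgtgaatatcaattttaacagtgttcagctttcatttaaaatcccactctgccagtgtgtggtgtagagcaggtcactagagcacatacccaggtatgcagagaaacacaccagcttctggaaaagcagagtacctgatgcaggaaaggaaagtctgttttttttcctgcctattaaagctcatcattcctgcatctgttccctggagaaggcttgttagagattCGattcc
Zfp820: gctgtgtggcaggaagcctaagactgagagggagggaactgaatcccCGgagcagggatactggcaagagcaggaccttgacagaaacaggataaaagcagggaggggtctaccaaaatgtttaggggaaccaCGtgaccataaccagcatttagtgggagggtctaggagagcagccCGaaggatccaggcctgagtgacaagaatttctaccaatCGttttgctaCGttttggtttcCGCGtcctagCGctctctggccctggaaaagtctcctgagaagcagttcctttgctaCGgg

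The window of Zfp84 held 9 CG, that of Zfp735 2 and that of Zfp820 9. Over the 97 windows listed for 79 of the zinc finger genes the median was 16 CG, with quartiles of 9 and 24, and over 21263 windows of all protein-coding genes in the table it was 13, with quartiles of 4 and 24. TATAAA was found on either strand in 6.19% of the zinc finger windows, among them that of Zfp84, and in 12.6% of all windows. CCAAT was found in 44.3%, among them that of Zfp820, and in 38.2% of all, and GGGCGG in 51.5% and in 46.2%. None of the 3 printed windows held GGGCGG. No motif contains another, and a match is a string of letters, not a bound site.

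At 12 days no zinc finger gene passed, and no gene of the array did (0% of 6237). The knockout term, the part of a ratio that turns with the dye of the knockout, is the genotype's if ratios are Cy5 over Cy3. Of 88 genes tested for it, 2 had an unadjusted p under 0.05 in limma (2.27%), against 1.92% of all genes. Zfp790 had the smallest p. Under the Cy5 over Cy3 reading it lay at 0.23 (SE 0.08, adjusted p = 1.0). Its deposited values were 0.18, 0.26 and 0.252 where knockout RNA carried Cy5, and -0.37 and -0.10 where it carried Cy3. Its sign thus turned with the dye on every array. Zfp820 lay at -0.39 (SE 0.16, adjusted p = 1.0), from -0.58, -0.20 and -0.566 where knockout RNA carried Cy5, and -0.17 and 0.84 where it carried Cy3. Replicate 3 stood apart, and the estimate was -0.14 without it and -0.64 without replicate 2. Zfp518b (-0.46), Zfp957 (0.18), Zfp949 (-0.16) and Zfp950 (-0.15) came next, each with adjusted p = 1.0. The median of the 88 genes was 0.01, and their estimates ran from -0.46 to 0.26.

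Knockout RNA carried Cy5 on 3 arrays of 12 days and Cy3 on 2, so a ratio that turns its sign with the dye can be told from one that does not. Read as Cy5 over Cy3, the turning part is the genotype's and the common part is the dye's. Read as knockout over wild type the meanings swap, and the common part is then the genotype's. Of 82 zinc finger genes with all 5 values, 14 (17.1%) had a deposited ratio below 0 on every array, whichever dye the knockout carried, against 5.43% of all genes. A further 5 (6.10%) were above 0 on every array, against 7.43%. A sign that followed the dye of the knockout on every array was seen in 6. Zfp410, Zfp654, Zfp740 and Zfp790 (4.88%, against 1.91% of all genes) were positive where knockout RNA carried Cy5, and Zfp217 and Zfp81 (2.44%, against 2.71%) were negative there. These counts rest on signs, take in values close to 0 and carry no test. Among genes below 0 throughout, the array nearest 0 read -0.0033 for Zfp592, -0.005 for Zfp277 and -0.008 for Zfp296. For Zfp592 and Zfp296 that value averaged probes of both signs. In the fit of the 5 arrays the common term, which estimates the part shared by both orientations, had a median of -0.04 over the zinc finger genes and 0.01 over all genes. At an unadjusted p under 0.05 it stood out for 11 of 88 (12.5%), against 6.2% of all genes. None passed after adjustment in limma, nor did any gene (0%), the smallest adjusted p of a zinc finger gene being 0.57.

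**Figure D3:**
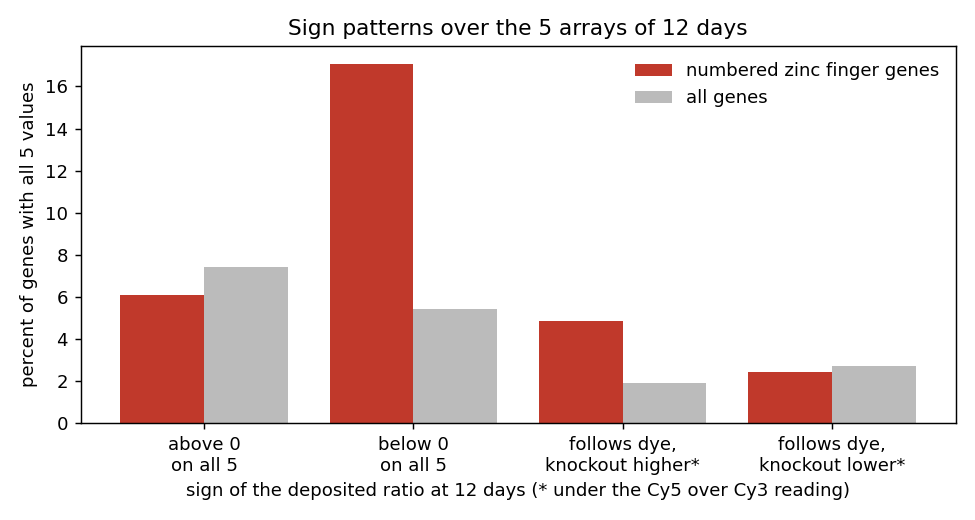
Share of genes with a value on all 5 arrays of 12 days (vertical axis, percent) that show each pattern of deposited signs, for the zinc finger genes (red, 82 genes) and for all genes (grey, 5616 genes). The bar for ratios below 0 on all 5 arrays reaches 17.1% for zinc finger genes and 5.43% for all genes.

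Zfp708 and Zfp84 had the most negative common terms of the group, which may be dye or genotype by the reading. Zfp708 read -2.02, -1.20 and -0.288 where knockout RNA carried Cy5, and -1.17 and -0.64 where it carried Cy3. The values of both orientations overlapped, and the common term was -1.04 (SE 0.24) beside a knockout term of -0.13 (SE 0.24). Zfp84 read -1.49, -1.13 and -0.464 where knockout RNA carried Cy5, and -1.30 and -0.39 where it carried Cy3. They overlapped too, with a common term of -0.94 (SE 0.19) and a knockout term of -0.09 (SE 0.19). Zfp735 (-0.32), Zfp296 (-0.39), Zfp949 (-0.29) and Zfp398 (-0.33) completed the 6 of smallest p. Of Zfp296, the probe that was high at 15 days read -1.25, -1.05 and -0.088 where knockout RNA carried Cy5, and -1.10 and -0.37 where it carried Cy3, while the other stayed between -0.12 and 0.13. Among the 14 genes below 0 on all 5 arrays were also Zfp267, Zfp277, Zfp51, Zfp511, Zfp592, Zfp638, Zfp704, Zfp91 and Zfp948. Those above 0 on all 5 were Zfp219, Zfp263, Zfp462, Zfp598 and Zfp821.

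Genes with a negative common term at 12 days tended to have a positive ratio at 15 days. Over 87 zinc finger genes the common term and the 15-day mean correlated at r = -0.65 (Spearman's rho -0.54), and over 79 of them, without the 8 genes past the threshold, at r = -0.55. Over 6144 genes of the array it was r = -0.33. The genes share arrays and are not independent, so these are descriptions. Leaving out 1 array of 12 days gave r = -0.63 to -0.57 over the zinc finger genes. Over all genes it gave r = -0.43 without replicate 2, r = -0.19 without replicate 3 and values between these without each of the others. The knockout term of 12 days correlated with the 15-day mean at r = 0.04 over the zinc finger genes and at r = 0.25 over all genes. Zfp267, Zfp296, Zfp708, Zfp735 and Zfp84 were above 0 on all 4 arrays of 15 days and below 0 on all 5 of 12 days, 5 of 79 (6.33%) against 1.62% of genes. None showed the reverse, which 2.75% of genes did. All arrays of 15 days had knockout in Cy3, so dye and genotype cannot be told apart within that age.

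**Figure D4:**
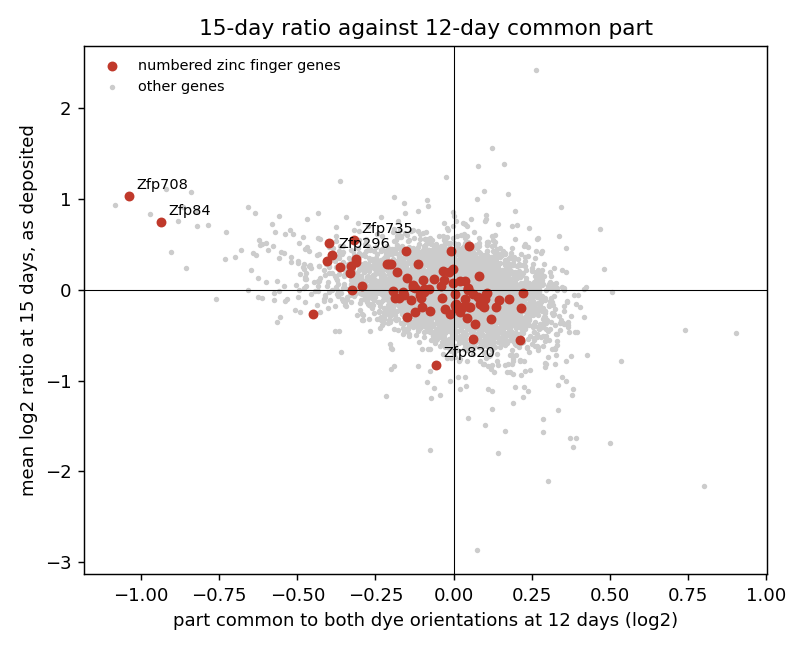
Mean log2 ratio at 15 days (vertical axis, deposited sign) against the part common to both dye orientations at 12 days (horizontal axis, log2) for 87 zinc finger genes (red) and the other genes (grey). Zfp708 (common part -1.04, 15-day mean 1.03) and Zfp84 (-0.94 and 0.74) lie at the upper left.

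A joint fit of both ages sets a shared common term against the 15-day mean, and its outcome turned on the direction of the ratios. With every array read as Cy5 over Cy3 the term is taken off the 15-day mean. With the sign of the 15-day arrays turned it is added, so estimates near 0 there restate common terms of like size and opposite sign. With every array read as Cy5 over Cy3, 4 of 87 zinc finger genes passed above 0 at 15 days, on the deposited sign, and none below, against 2.6% and 5.21% of genes (7.81% in either direction). They were Zfp708 at 2.07, Zfp84 at 1.68, Zfp735 at 0.86 and Zfp296 at 0.77, with adjusted p from 0.0059 to 0.019. The value of Zfp296 again averaged the pair of probes that disagreed at both ages. With the sign of the 15-day arrays alone turned, these are read as knockout over wild type and those of 12 days still as Cy5 over Cy3. A fit with every array read as knockout over wild type was not made. With the 15-day sign turned none passed, against 0.0488% of genes above 0, 0.114% below and 0.163% in either direction. An unadjusted p under 0.05 in limma was seen for 7 of 87, against 14.7% of genes. The estimate for Zfp708 was then -0.0047 (SE 0.30), that of Zfp296 -0.0068 (SE 0.16) and that of Zfp84 -0.19 (SE 0.28). Zfp334 (0.54), Zfp507 (0.41), Zfp735 (0.23), Zfp639 (-0.31) and Zfp820 (-0.88) kept their deposited sign there, with adjusted p from 0.13 to 0.50. Zfp820 was alike in the plain mean and in both joint fits, -0.83, -0.77 and -0.88, but its adjusted p in the joint fits was 0.050 and 0.13.

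The knockout effect was also set against the other age. The estimate compares the 4 arrays of 15 days with 12-day replicates 2 and 3, the arrays of the same orientation. With all arrays read as Cy5 over Cy3, 3 of 87 zinc finger genes had a lower knockout over wild-type ratio at 15 days than at 12 days, and none a higher one, against 0.635% and 1.64% of genes (2.28% in either direction). Zfp708 differed by -1.94 (SE 0.38, limma adjusted p = 0.030), Zfp84 by -1.59 (SE 0.35, adjusted p = 0.045) and Zfp735 by -0.82 (SE 0.19, adjusted p = 0.050, just inside the threshold). Zfp820 had the largest difference the other way, 1.16 (SE 0.27, adjusted p = 0.051). With every array read as knockout over wild type the same arrays are compared, so each difference keeps its size and its p and changes sign. That follows from the model and was not fitted separately. With only the 15-day sign turned, which leaves 12 days as Cy5 over Cy3, no zinc finger gene and no gene of the array passed (0%). Of the 87, 3 had an unadjusted p under 0.05, against 6.07% of genes. Zfp708 then differed by 0.13, Zfp84 by -0.10 and Zfp735 by 0.28. The count of 3 was 0 without 15-day replicate 1, 2 or 3 or without 12-day replicate 2, 3 or 4, and 5 without 12-day replicate 5. As deposited, 11 of 87 genes had all their 15-day values above all their 12-day values, against 5.42% of genes, and 4 the reverse, against 9.65%. These counts take in 12-day arrays of both orientations, so read as Cy5 over Cy3 they do not compare the knockout effect. They carry no test.

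Several probes stood for 20 of the zinc finger genes, and in 8 of these the probe means at 15 days had both signs. Some of these means lay close to 0, and of the 8 genes only Zfp296, Zfp957 and Zfp710 had a probe past the threshold. The share among all genes with several probes is not given here. Besides Zfp296 and Zfp957 the 8 genes were Zfp110, Zfp592, Zfp644, Zfp710, Zfp821 and Zfp91. The probes of Zfp644 read 0.35 and -0.32 on average, each with the same sign on all 4 arrays. Those of Zfp710 read 0.52, with an adjusted p = 0.020 as a single probe, and -0.14 (0.50). Those of Zfp821 read 0.27 and -0.34. Zfp110, which encodes an interactor of the neurotrophin receptor, had probe means of 0.15 and -0.14. The 3 probes of Zfp592 averaged 0.23, 0.20 and -0.09, and those of Zfp91 0.12, -0.03 and -0.16. A cDNA probe can also bind RNA of a closely related zinc finger gene, which was not tested. Tested as single probes, 8 zinc finger genes had a probe past the threshold above 0 and 3 had one below, 11 of 97 in all. Among all genes 6.29% had such a probe above 0, 8.82% below and 15.1% in either direction.

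Besides Zfp708, the other zinc finger genes with known roles in silencing did not pass at 15 days before the correction for spot position. Zfp809, which recruits Trim28 to silence retroviral DNA, lay at 0.07, 0.08, 0.96 and 0.95 at 15 days, a mean of 0.52 (SE 0.17, adjusted p = 0.077), with replicates 3 and 4 high and the others near 0. Zfp57 and Zfp445, which protect imprints, lay at 0.07 and -0.03, and Zfp568, which silences a fetal transcript of Igf2, at 0.01. Zfp638, which acts against unintegrated retroviral DNA, lay at 0.20. Zfp42, also known as Rex1, a stem cell marker expressed in meiotic germ cells too, lay at -0.58, -0.79, 0.38 and -0.06 (mean -0.26, SE 0.18, adjusted p = 0.34), with replicates 1 and 2 low and replicate 3 high. After the correction for spot position Zfp809 lay at 0.47 (adjusted p = 0.031) and Zfp42 at -0.39 (adjusted p = 0.048).

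Genes with other roles that did not pass lay between -0.22 and 0.34 at 15 days. Zfp207, which loads the checkpoint protein Bub3 at kinetochores, lay at 0.21, and Zfp217, a corepressor subunit, at -0.05. Zfp451, a SUMO ligase, lay at -0.20, the ubiquitin ligases Zfp91 at -0.02 and Zfp598 at -0.10, and Zfp622 and Zfp593, which act in maturation of the large ribosomal subunit, at 0.04 and -0.09. Zfp410, an activator of Chd4, lay at -0.10 and Chd4 itself at 0.05. Zfp131 (-0.19), Zfp277 (-0.12), Zfp335 (0.15), Zfp592 (0.11), Zfp704 (0.34), Zfp706 (-0.22) and Zfp94 (-0.19) did not pass either, with adjusted p from 0.13 to 0.52. Zfp462 had no value at 15 days, and at 12 days its deposited ratio lay between 0.06 and 0.34 on the 5 arrays.

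The genes were spread over 20 chromosomes, with 14 on chromosome 17 and 13 on chromosome 7. On chromosome 7, 11 of 13 were above 0 at 15 days (median 0.11), among them 3 that passed, Zfp84, Zfp507 and Zfp296. Of the 478 genes tested on that chromosome 49.4% were above 0 (median -0.01) and 43 passed. The chromosome was picked out after all 20 were seen, and no test was made. On chromosome 17, 8 of 14 were above 0 (median 0.08), with Zfp820 past the threshold below 0. Direct neighbours, with no other protein-coding gene between them, had like and unlike values, with no test of the difference. Zfp229 (0.11) and Zfp820 (-0.83) were the most unlike pair. Zfp58 (-0.24) and Zfp87 (0.01), Zfp81 (0.11) and Zfp101 (-0.21), and Zfp282 (0.04) and Zfp212 (-0.21) differed less. Zfp398 (0) and Zfp282, Zfp54 (-0.12) and Zfp51 (-0.06), and Zfp61 (-0.33) and Zfp94 (-0.19) were closer. The only X-linked gene of the group, Zfp185, lay at 0.13, -0.38, 0.19 and 0.13 on replicates 1 to 4, a mean of 0.02 (limma adjusted p = 0.94). Of the 207 genes tested on the X chromosome 74.4% were above 0 (median 0.15). On the other chromosomes the share ran from 37.6% on chromosome 10 to 49.4% on chromosome 7. What these shares say about the direction of the ratios was not tested. Zfp783 is listed as a long noncoding RNA in RefSeq and lay at -0.09.

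The partners of KRAB zinc finger proteins were measured on the same arrays. Trim28, the corepressor itself, had -0.45, -0.51, -0.78 and -0.32 at 15 days, a mean of -0.52 (SE 0.11, limma adjusted p = 0.021), and all 4 arrays lay below 0. Mta2, a subunit of the NuRD deacetylase complex, lay at -0.45 (SE 0.11, adjusted p = 0.029). Of 19 genes of this silencing machinery tested, these 2 passed below 0 and none above, against 7.2% of all genes below 0 and 11.2% in either direction, and the list median was -0.04. Mphosph8, of the HUSH complex, lay at -0.37 (adjusted p = 0.056) and Setdb1, the histone methyltransferase that Trim28 recruits, at 0.10 (0.57). At 12 days Trim28 was above 0 on all 5 arrays, at 0.29, 0.23 and 0.20 where knockout RNA carried Cy5 and 0.04 and 0.28 where it carried Cy3, and its knockout term was 0.04 (adjusted p = 1.0).

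Zinc finger genes that carry other names were counted at 15 days as well. Of 12 genes named Klf or Sp with a number 2 passed above 0, Klf11 (0.60) and Sp6 (0.76), although Sp6 was at -0.12 on replicate 4. The list was taken by name and includes Sp100 (0.14) and Sp110 (0.04), which are not of the Klf and Sp zinc finger family and did not pass. Of 12 Zbtb genes 1 passed, Zbtb24 (0.53), and of 6 Prdm genes 1, Prdm2 (0.56), both above 0. None passed of 5 Zscan and Zkscan genes, or of Egr1, Gli2, Gli3, Ikzf4, Sall2, Sall4 and Zfx. Of all genes 4.04% passed above 0. No gene of these 5 lists passed below 0, and none passed at 12 days. Some markers of cell types passed at the same age. Of 10 spermatocyte markers 6 passed below 0 at 15 days (median -0.53), against 7.2% of all genes. They were Slc2a3 (-2.16), Rsph1 (-1.73), Lyar (-1.56), Syce1 (-0.665), Ccnb1ip1 (-0.58) and Sycp1 (-0.48). Of 6 spermatogonial markers 3 passed above 0 (median 0.39), Etv5 (1.20), Ccnd1 (0.415) and Uchl1 (0.36). Gfra1, Sall4 and Kit did not pass. Of 8 Sertoli, 5 Leydig, 5 peritubular, 3 macrophage and 4 endothelial and blood markers, 0, 1, 1, 0 and 1 passed above 0 and 0, 0, 1, 1 and 0 below. The median of the spermatocyte markers lay between -0.71 and -0.44 on the 4 arrays and that of the spermatogonial markers between 0.23 and 0.41. These lists were chosen with changes of some of their genes known, so their counts are no independent evidence. Sycp2 (-0.46), Sycp3 (0.23), Smc1b (-0.08) and Tex101 (-0.25), also spermatocyte markers, did not pass. The part of other cell types in the zinc finger ratios was not tested.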

How the data were processed

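The deposited values were log2 ratios, read here as base 2, which no source used here states. Per the series' design text, the authors scanned with a GenePix 4000A, extracted and flagged spots with GenePix 3.0 and centred each array on its median. The background correction was not given in the sources used here, and the number of arrays limits precision. Of 16128 probes, 9604 had exactly 1 platform symbol, 213 several and 6311 none. The annotation is old, and probes of a gene were averaged per array. Probes without a single symbol stayed separate features. The test was limma (version 3.58.1, R 4.3.3), two-sided, with Benjamini-Hochberg adjustment over all features. Features needed 3 values at 15 days, where the mean was set against 0, and 4 values of both orientations at 12 days, where a knockout term and a common intercept were fitted. All 9 arrays entered the joint fit with a shared common term. The tests were also run on simulated arrays of independent noise without a dye or spot effect, so that run does not speak to such effects here. RefSeq tables of GRCm38.p6 gave symbols, chromosomes, neighbours and promoters.

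Members follow a rule on symbols, but this group of genes, the lists and the tests were chosen with earlier results of these data known. Named were all members past the threshold with the next by p up to 10 at 15 days, and the 6 of smallest p at 12 days and for the common term. Also named were those past the threshold for the age difference, members with a known role, the X-linked member and those whose probe means differed in sign. Zfp820 in the age comparison, Zfp783, Zfp445, Zfp593, Zfp598, Zfp622, Zfp369, Zfp54, Zfp955a, Mphosph8, Setdb1, the markers and the neighbouring genes were named after their values were seen. A planned split by protein features was not made, as no protein table was used here. Alternatives covered missing values, array scaling and quantiles, probes taken singly, a robust prior, the threshold, common terms, spot position, direction and single arrays left out.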

Additional observations from a re-analysis of the deposited data

Results flagged for a closer look

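In 30 sets of values, each the arrays of 1 age for a named gene or for the group's median, 3 had an array far from the rest, where chance gives about 1 in 20. Zfp820 lay at -0.44 on 15-day replicate 1, against -0.98 to -0.90 on the other 3 arrays. Zfp790 lay at -0.21 on 15-day replicate 4, against 0.14 to 0.20. The median of the zinc finger genes was -0.025 on 15-day replicate 1 and -0.01 on the other 3, a small gap in log2 units.

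The knockout effect differed between 15 and 12 days for Zfp708 (-1.94), Zfp84 (-1.59) and Zfp735 (-0.82) when every array is read as Cy5 over Cy3, by the test of the difference itself in limma (adjusted p = 0.030, 0.045 and 0.050). With every array read as knockout over wild type the differences would keep their size and change sign. With only the 15-day sign turned the differences were 0.13, -0.10 and 0.28, with limma adjusted p = 0.98, 0.98 and 0.86.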

How the results depend on the processing

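At 15 days, the 6 genes above 0 and the 2 below became 1 and 1 at a limma adjusted p under 0.01 with at least a 1.5-fold change. They became 0 and 0 in the joint fit with the 15-day sign alone turned, and 4 and 0 in that read as Cy5 over Cy3. After correction for spot position they were 6 and 8. That correction took off a running median over 100 spots before and 100 after each. Spots were ordered by probe number, and no array coordinates were used. With 1 array left out the counts ranged from 1 to 4 above 0 and were 1 below 0. Of the 8 genes 7 were also called after the spot correction. In the joint fit with the sign turned Zfp708 lay at -0.0047, Zfp296 at -0.0068 and Zfp84 at -0.19, and in the age comparison with the sign turned Zfp708 lay at 0.13 and Zfp735 at 0.28. For the age difference, 0 genes passed above 0 and 3 below. These counts were 1 and 3 with values on every array, 0 and 5 with scaled arrays, 1 and 6 with quantile normalization and 2 and 4 with single probes. They were 0 and 0 with the 15-day sign alone turned, and 0 to 1 and 0 to 5 with 1 array left out. The 15-day median of -0.02 was -0.038 with quantile normalization and ranged from -0.027 to 0 with 1 array left out. The count of genes above 0 on all 5 arrays of 12 days was 3 after spot correction, an alternative added after seeing the data, and that of genes below 0 stayed 14. At 12 days limma called no zinc finger gene under any alternative tried. The causes of these shifts were not tested. No paired analysis was possible because each array already sets knockout against wild type of a pair, and replicate numbers, given in order of deposit, match no arrays between ages.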
